A study of Bos taurus with 12 samples.

Results

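The genes described here are 9 markers of the myoepithelial cells of the mammary gland (MG): the contractile genes CNN1, ACTA2, TAGLN, MYH11 and MYLK, the basal keratins KRT5 and KRT14, the oxytocin receptor gene OXTR and the transcription factor gene TP63. They were taken as every non-control probe whose RefSeq transcript maps to 1 of these symbols, which gave 18 probes of the 43653 on the array, and 9 genes of the 12787 that received a symbol. Of these, 16 probes of 8 genes were bright enough to be tested, beside 19406 probes of all genes.

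Myoepithelial cells form the basal layer of the mammary epithelium and wrap the alveoli and ducts. Oxytocin released at milking or suckling binds its receptor on these cells, calcium rises inside them, myosin light chain kinase phosphorylates the myosin light chain, and the cells shorten along actin filaments and push milk into the ducts. They share this contractile machinery with the smooth muscle of blood vessels, and they share keratins and TP63 with other basal epithelia.

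RNA came from MG biopsies of 6 lactating Holstein cows, multiparous and in midlactation, each sampled in 2 periods. CONT was day 0, when the cows ate a lactation diet ad libitum. REST was day 6 of a restriction in which the allowance covered 50% of the net energy requirement for lactation. Each biopsy came from the rear of the udder, on alternate sides, and every RNA was hybridised to 1 one-colour (Cy3) array. The CONT and REST arrays of a cow shared a slide: slide 1 held cows 1 and 2, slide 2 held cows 3 and 4, and slide 3 held cows 5 and 6. The series description counts 5 cows where the labels name 6, and the study excluded 1 Holstein cow for mastitis without the labels saying which, so the count of called probes and the changes of the tested marker probes were recomputed 6 times, with a different cow omitted each time.

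Values are normalized signals, which are log2 processed intensities minus the 75th percentile of the same array, so that 0 is that percentile and a step of 1 is a doubling. A normalized signal can be compared between arrays for 1 probe but not between probes. Slide 3 was dimmer than the others, with a 75th percentile of 73.2 to 117 intensity units against 252 to 390.0, and with 41.9 to 48.0% of spots well above background against 61.8 to 67.9%. No spot was saturated, and no spot of these 18 probes was marked by the scanner software. In a bulk biopsy, fewer cells of a type and less RNA per cell cannot be told apart.

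The genes with a probe called lower in REST were CNN1, ACTA2 and TAGLN, and no probe of MYH11, MYLK, KRT5, KRT14 or OXTR was called. At an adjusted p of 0.1 in the limma fit with the cow as a block, 3 of the 16 tested probes were called, 1 for each of the first 3 genes. Over the whole array 16.0% of tested probes were called in either direction, so the count itself is close to what the array gave as a whole. Counted by the probe of highest signal of each gene, 2 of 8 genes were lower (CNN1 and ACTA2) and 0 were higher. Among all 7932 genes tested, 9.27% were lower and 6.95% were higher. This balance depends on the processing. Of all tested probes, 1703 were called lower and 1402 higher, but 1692 lower and 1985 higher with normexp background correction. Another 2 of the 16 marker probes, 1 of TAGLN and 1 of KRT14, had an unadjusted p under 0.05 in the limma fit without passing the adjustment.

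CNN1 encodes calponin, which binds actin and holds back the actin-activated ATPase of myosin. The CONT signals of its brighter probe (A_73_116127, NM_001046379) were 4.16, 4.69, 5.15, 4.19, 4.17 and 4.99 in cows 1 to 6. The REST signals of the same cows were 3.66, 3.93, 4.88, 4.11, 3.38 and 4.19. REST was lower in 6 of 6 cows, by as little as 0.09 in cow 4 and as much as 0.80 in cows 5 and 6, although the groups overlapped because the cows differed from one another. The mean change was -0.53 ± 0.12 (SE, n = 6 cows), so the signal fell by 30.9%, and this passed the test (adjusted p = 0.032 in limma with the cow as a block, 0.29 without it). Within slides the change was -0.62 on slide 1, -0.18 on slide 2 and -0.80 on slide 3. Without cow 2 the adjusted p in limma was 0.10 (0.1006) and the call was lost, and without both cows of slide 3 the change was -0.40 with an adjusted p of 0.14. The dimmer CNN1 probe (A_73_P349531) had a change of -0.26 and was lower in 5 of 6 cows. It was not called (adjusted p = 0.31 in limma), and in cow 4 it was higher by 0.58. Without cow 4 its change was -0.43 and it was called (adjusted p = 0.092 in limma).

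ACTA2 encodes smooth muscle alpha actin, the actin isoform by which myoepithelial cells are usually stained. The actin isoforms are nearly identical in their coding sequence, and whether the probe tells them apart was not tested. Its single probe (A_73_102355, NM_001034502) gave CONT signals of 5.45, 5.92, 6.54, 5.70, 5.79 and 6.36 in cows 1 to 6, and REST signals of 5.04, 5.14, 6.35, 5.83, 5.39 and 5.76. REST was lower in 5 of 6 cows, and cow 4 was higher by 0.13. The mean change was -0.38 ± 0.12 (SE, n = 6 cows), a signal that fell by 23.0% (adjusted p = 0.086 in limma with the cow as a block, 0.45 without it). The change was -0.59 on slide 1, -0.03 on slide 2 and -0.51 on slide 3. This call was near the threshold: in limma it held without cow 4 (change -0.48, adjusted p = 0.074), and was lost without cow 1 (0.17), cow 2 (0.22), cow 3 (0.11), cow 5 (0.13), cow 6 (0.18) or slide 3 (change -0.31, adjusted p = 0.27).

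TAGLN encodes transgelin, a calponin-related protein that bundles actin filaments. The brighter of its 2 probes (A_73_108617, NM_001046149) had CONT signals of 2.33, 2.81, 3.45, 2.45, 2.59 and 3.28 in cows 1 to 6, and REST signals of 2.08, 2.30, 3.35, 2.54, 2.12 and 2.31. Its mean change was -0.37 ± 0.13 (SE, n = 6 cows), lower in 5 of 6 cows, and did not pass the test (adjusted p = 0.12 in limma). The other probe (A_73_P291026) ran from 0.09 to 1.19 in CONT, with a median of 0.57, and from -0.41 to 1.06 in REST, with a median of 0.06. Its change was -0.49 ± 0.15 (SE, n = 6 cows) and passed, so that the signal fell by 28.7% (adjusted p = 0.080 in limma with the cow as a block, 0.35 without it). Both TAGLN probes had the same cows at the extremes: the largest decrease was in cow 6, by 0.96 and 0.997, and cow 4 was higher by 0.09 and 0.03. The second probe's change was -0.49, -0.03 and -0.94 on slides 1, 2 and 3. In limma its call held without cow 3 (0.084) or cow 4 (0.094), and was lost without cow 1 (0.12), cow 2 (0.21), cow 5 (0.14), cow 6 (0.17) or slide 3 (change -0.26, adjusted p = 0.31).

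**Figure D1:**
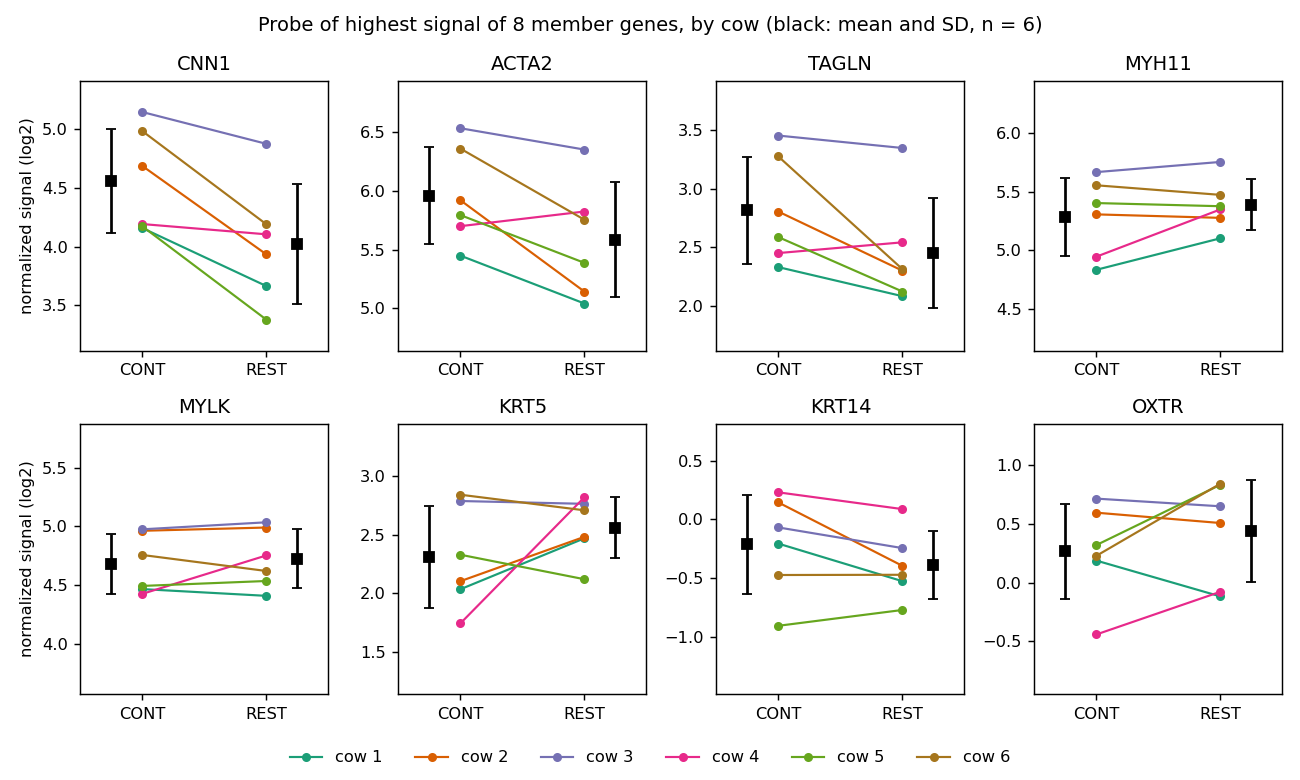
Normalized signal (log2, vertical axis) of the probe of highest signal of 8 genes in CONT and REST, with 1 coloured line per cow and black squares for the mean ± SD of 6 cows; each panel has its own range. For CNN1 all 6 lines go down and for ACTA2 and TAGLN 5 of 6 do, while the lines of MYH11, MYLK, KRT5 and OXTR run both ways, with cow 4 higher in REST by 0.40 for MYH11 and 0.33 for MYLK.

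MYH11, the smooth muscle myosin heavy chain and the motor of the contractile filament, had 4 tested probes, and none was called in the fit described above. The brightest (A_73_103577, NM_001102127) ran from 4.83 to 5.67 in CONT, with a median of 5.36, and from 5.10 to 5.75 in REST, with a median of 5.36. It was higher in 3 cows and lower in 3, and its mean change was 0.10 with a 95% confidence interval of -0.10 to 0.31 (adjusted p = 0.49 in limma). For this probe the interval does not reach down to the mean changes of CNN1, ACTA2 or TAGLN, which have errors of their own. It overlaps the interval of the brighter TAGLN probe, -0.66 to -0.07, and that of ACTA2 ends near it, at -0.11. Without cow 4 the change of this MYH11 probe was 0.04. With normexp background correction it was 0.24 and the probe was called higher (adjusted p = 0.088 in limma). The second brightest MYH11 probe (A_73_P035431) had a change of 0.11. The 2 dimmest disagreed in sign, with -0.18 for A_73_P106816 and 0.29 for A_73_P162812. With 1 cow left out they ran from -0.30 to -0.07 and from 0.11 to 0.37. The interval of A_73_P106816, -0.49 to 0.13, takes in the mean changes of ACTA2 and TAGLN. For A_73_P162812, the scanner software called 5 of the 6 CONT spots and all 6 REST spots well above background, and its change of 1.17 in cow 5 was the largest of any MYH11 probe.

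MYLK, the kinase that switches myosin on, had the smallest mean change of the 8 tested genes in the fit described above, by the probe of highest signal. Its brighter probe (A_73_111992, NM_176636) ran from 4.43 to 4.98 in CONT, with a median of 4.62, and from 4.41 to 5.04 in REST, with a median of 4.69. The change was 0.04 with a 95% confidence interval of -0.15 to 0.23 (adjusted p = 0.77 in limma). The other MYLK probe (A_73_P096221) had a change of 0.05, with an interval of -0.12 to 0.23, and the largest change of both probes was in cow 4, at 0.33 and 0.29. Without cow 4 the change of the brighter probe was -0.01. With quantile normalization it was 0.12 and with normexp 0.18, not called in either. With normexp the changes of OXTR (0.13) and KRT14 (-0.17) were smaller in size than that of MYLK.

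The changes of CNN1, ACTA2 and TAGLN were then set against those of MYH11 and MYLK within each cow. These genes were paired after their changes had been seen, which by itself makes differences below 0 likely, so the values are a description and no test is given. For each cow, the change of MYH11 or MYLK was subtracted from that of CNN1, ACTA2 or TAGLN, using the probe of highest signal, so that any factor shared by all probes of an array cancels. The CNN1 change was lower than the MYH11 change by a mean of -0.64 ± 0.17 (SD, n = 6 cows) and lower than the MYLK change by -0.58 ± 0.21. For ACTA2 the differences were -0.48 ± 0.20 and -0.42 ± 0.22, and for TAGLN -0.47 ± 0.23 and -0.41 ± 0.26. With these probes all 6 differences were below 0 in 6 of 6 cows, cow 4 included, and the one nearest to 0 was -0.17, for TAGLN against MYLK in cow 3. Dimmer probes did not all keep this order. In cow 4 the dimmer CNN1 probe was higher by 0.58, more than MYH11 (0.40) and MYLK (0.33) by their probes of highest signal. ACTA2 was higher by 0.13 in cow 4, while MYH11 probe A_73_P106816 had a change of -0.06.

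**Figure D2:**
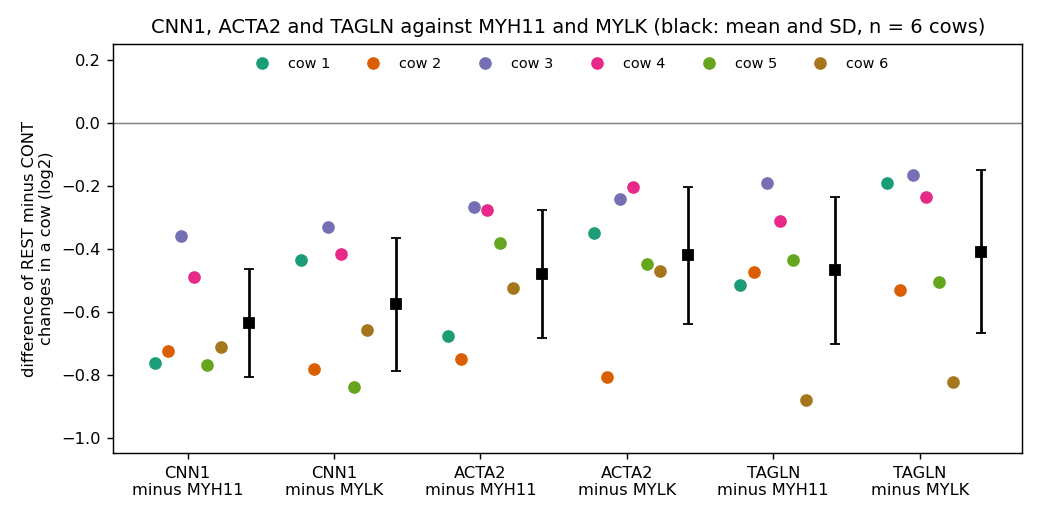
Difference between the REST minus CONT change of CNN1, ACTA2 or TAGLN and that of MYH11 or MYLK in the same cow (log2, vertical axis), with 1 coloured point per cow and black squares for the mean ± SD of 6 cows. By the probe of highest signal, all 36 points lie below 0, from -0.17 to -0.88.

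KRT5 and KRT14 encode the type II and type I keratins that pair into the filaments of basal epithelial cells. The brighter KRT5 probe (A_73_P251266, NM_001008663) ran from 1.74 to 2.84 in CONT, with a median of 2.22, and from 2.12 to 2.82 in REST, with a median of 2.59. It was higher in 3 cows and lower in 3, with a mean change of 0.25 (95% confidence interval -0.12 to 0.62, adjusted p = 0.34 in limma). Cow 4 alone was higher by 1.08, moving from the lowest KRT5 signal of the CONT arrays to the highest of the REST arrays, and without cow 4 the change was 0.09. The dimmer KRT5 probe (A_73_P048351) showed the same, with a mean change of 0.24 and a difference of 1.23 in cow 4. On slide 3 both probes were lower, by -0.17 and -0.40, against changes of 0.41 to 0.65 on slides 1 and 2.

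The 2 KRT14 probes (both for NM_001166575) disagreed in sign. A_73_103715 ran from -0.91 to 0.23 in CONT, with a median of -0.14, and from -0.77 to 0.09 in REST, with a median of -0.43. Its change was -0.17 (95% confidence interval -0.40 to 0.05, adjusted p = 0.29 in limma). A_73_P309126 ran from -0.86 to 0.15 in CONT, with a median of -0.69, and from -0.50 to 0.39 in REST, with a median of -0.24. It was higher in 5 of 6 cows with a change of 0.31, which missed the threshold (adjusted p = 0.15 in limma) and passed it without cow 6 (change 0.43, adjusted p = 0.074) or without slide 3 (change 0.47, adjusted p = 0.093). No direction can be given for KRT14 from these probes.

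OXTR, the receptor through which oxytocin starts the contraction, had 1 tested probe (A_73_100134, NM_174134). Its CONT signals were 0.19, 0.60, 0.72, -0.44, 0.32 and 0.23 in cows 1 to 6, and its REST signals were -0.12, 0.51, 0.65, -0.08, 0.83 and 0.84. It was lower in cows 1, 2 and 3 and higher in cows 4, 5 and 6. The mean change was 0.17 (95% confidence interval -0.13 to 0.48, adjusted p = 0.43 in limma), made up of -0.20 on slide 1, 0.15 on slide 2 and 0.57 on slide 3. With 1 cow left out it ran from 0.08 without cow 6 to 0.27 without cow 1. The second OXTR probe (A_73_P416286) cleared background in 4 of 6 CONT and 5 of 6 REST samples, was therefore not tested, and ranged from a change of -0.28 in cow 2 to 1.93 in cow 6. TP63, the master regulator of basal epithelial identity, had a single probe (A_73_P096381, NM_001191337) that was not well above background on any of the 12 arrays, so this defining marker was not measured.

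**Figure D3:**
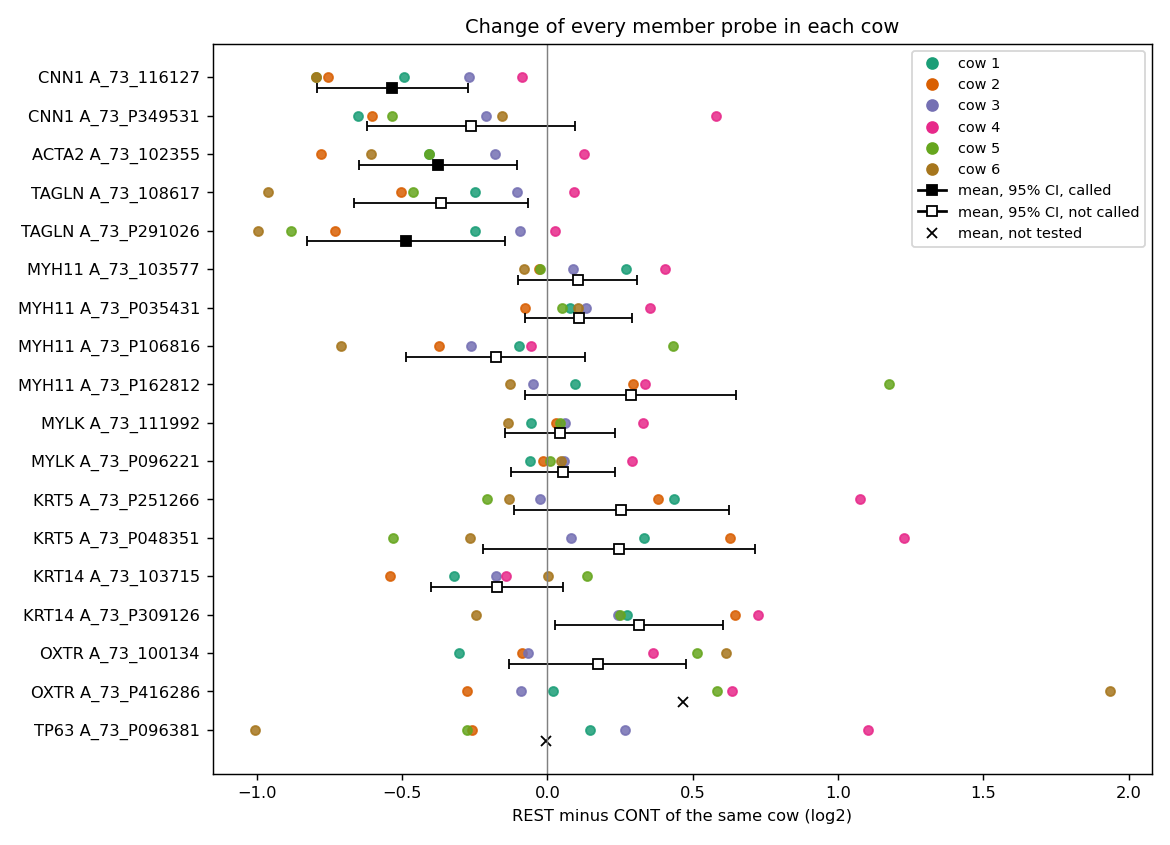
REST minus CONT change (log2, horizontal axis) of each of the 18 probes, with 1 coloured point per cow, and squares with bars for the mean and its 95% confidence interval from the limma fit, filled where the probe was called; crosses mark the mean of the 2 probes that were not tested. The 3 called probes, of CNN1, ACTA2 and TAGLN, lie to the left of 0, and cow 4 is the rightmost point in 13 of the 18 probes.

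Signals differed between cows as well as between periods. Of the sum of squares of the 12 signals, the cow took 65.8% and the period 27.0% for the brighter CNN1 probe, the cow with 5 degrees of freedom and the period with 1, 72.7% and 17.1% for ACTA2, and 70.9% and 15.8% for the brighter TAGLN probe. For the brightest MYH11 probe these shares were 84.7% and 3.91%, for the brighter MYLK probe 89.4% and 0.900%, and for the brighter KRT5 probe 47.6% and 13.1%. By the probe of highest signal, cow 3 had the highest signal of all 5 contractile genes in both periods, and cow 1 the lowest of ACTA2, TAGLN and MYH11 in both periods. Other probes gave another order, since cow 6 was highest for MYH11 A_73_P035431 in both periods and for TAGLN A_73_P291026 in CONT, and cow 5 was lowest for the latter in REST. By the probe of highest signal, between the highest and the lowest cow of a period, the signals of CNN1, ACTA2 and TAGLN differed by 1.99-fold to 2.83-fold. The CONT and REST signals overlapped for all 18 probes, the 16 tested ones included, and 2.25% of the tested probes of the array did not overlap, a share too small for the 0 here to be a result about these probes. Without the cow as a block, 0 of the 16 probes were called in limma and 1, of CNN1, had an unadjusted p under 0.05. Over the array 4.31% of tested probes were called in that fit, which for 16 probes is under 1 call.

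The other genes of smooth muscle contraction were given by a list of 25, of which 23 had a matched probe and 21 were tested. They held myosin light chains, tropomyosins, caldesmon, filamin, the other calponins and their transcriptional regulators. None was called lower and 1 higher, too few genes to set apart from the 9.27% and 6.95% over all genes, with 12 changes below 0 and 9 above, and a median change of -0.09 beside -0.01 over all genes tested. At an unadjusted p under 0.05 in limma, 0 were lower and 2 higher, and without the block none was called. The gene called higher was MRTFB, a coactivator of serum response factor, which rose by 0.61 ± 0.14 (SE) in 6 of 6 cows (adjusted p = 0.038 in limma, 0.13 without the block). Their changes ran from -0.25 to 0.61. The summed linear signal of the 21 genes, in multiples of the 75th percentile, adds probes of unknown relative sensitivity, so that bright probes weigh most. It ran from 247 to 365 in CONT and from 238 to 330.2 in REST, and was lower in REST in 5 of 6 cows. The same sum over the 5 contractile markers ran from 117 to 221 in CONT and from 105 to 208 in REST, and was also lower in 5 of 6 cows.

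Of the 26 genes that carry the oxytocin signal from the receptor to the myosin light chain, 17 had a matched probe and 14 were tested, among them G protein subunits, phospholipase C, calcium release channels and calmodulins. None was called in either direction in limma, with or without the block, beside 9.27% lower and 6.95% higher over all genes with it and 4.41% called without it, which for 14 genes is no result about the list. In limma 1 was lower and 2 were higher at an unadjusted p under 0.05, and the median change was -0.02. These counts are by the probe of highest signal, and of the 3 tested probes of PPP1CB, a catalytic subunit of the phosphatase that acts on myosin, 1 dimmer probe was called.

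Among 20 tested genes of the basal epithelium and of hemidesmosomes, the plaques that anchor basal cells to the basement membrane, 4 were called higher, 1 was called lower and the median change was 0.19, beside 6.95% higher and 9.27% lower over all genes. The count depends on the probe, since KRT15, ITGA6 and CAV1, not called by their probe of highest signal, had 3 of 4, 2 of 3 and 1 of 5 tested probes called. The direction of those calls is not given here, and the probes of highest signal changed by 0.39, -0.08 and 0.03. LAMB3, a chain of the basement membrane laminin of epithelia, rose by 0.55 ± 0.10 (SE) in 6 of 6 cows (adjusted p = 0.019 in limma, 0.043 without the block). ITGB4, the beta chain of the hemidesmosome integrin, rose by 0.53 ± 0.13 (SE) in 6 of 6 cows (adjusted p = 0.045 in limma, 0.049 without the block). DKK3, a secreted Dickkopf-family protein, rose by 0.51 ± 0.15 (SE) in 5 of 6 cows (adjusted p = 0.068 in limma, 0.18 without the block). The other called genes were KRT17, a basal keratin that was higher (adjusted p = 0.079 in limma, 0.25 without the block), and SPARC, a matrix-binding glycoprotein that was lower (0.067, and 0.098 without the block). Whether the basal genes and the contractile markers differed in their change was not tested.

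Some markers of other cells that the biopsy could hold were also called, to be read beside the 9.27% of all genes that were lower and the 6.95% that were higher. Of 11 tested genes of pericytes and vascular smooth muscle, which share the contractile markers, 2 were called higher and 1 lower, with a median of -0.04. EDNRA, an endothelin receptor, rose by 0.70, CSPG4, a surface proteoglycan of pericytes, rose by 0.35, and RGS5, a regulator of G protein signalling, fell by 0.36. MCAM was not called by its probe of highest signal (change -0.32), though 1 of its 2 tested probes was. The summed signal of these 11 genes was 12.5 to 17.4 in CONT and 12.1 to 16.0 in REST, lower in 3 of 6 cows, and of the matched markers only PLN failed to be tested, being well above background on 1 array. Of 10 tested endothelial genes, 2 were called higher, CLDN5 by 0.74 and VWF by 0.54, and the summed signal was higher in REST in 6 of 6 cows (28.1 to 41.8 in CONT, 37.3 to 47.7 in REST). Both called genes are in that sum, and a sum without them was not computed. Of the 10 changes 8 were above 0 and 2 below, ROBO4 and KDR at -0.15 each. Of 12 fibroblast genes 1 was called, FAP, higher by 0.54, and 2 were lower at an unadjusted p under 0.05. Among those not called by this probe, changes ran from -0.54 for the collagen gene COL1A1, of whose 3 tested probes 1 was called, to 0.32 for DCN, which encodes the proteoglycan decorin, with 7 of the 12 genes below 0 and 5 above. The median fibroblast change was -0.09, and the summed signal was 42.5 to 77.3 in CONT and 33.3 to 92.3 in REST, lower in 3 of 6 cows. Without the block, 1 of the 11 pericyte, 2 of the 10 endothelial and 0 of the 12 fibroblast genes were called in limma, beside 4.41% of all genes in that fit. The part of these cell types in the contractile marker values was not tested.

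Of 14 tested luminal genes, 3 were called higher and 2 lower. The keratins of secretory cells KRT8, KRT7 and KRT18 rose by 0.72, 0.53 and 0.52, while KRT19 had a change of 0.12 and was not called. CSN1S1 and CSN3, which encode caseins, were lower by 0.26 and 0.28, with 1 of 6 and 1 of 2 tested probes called, and LALBA, not called by its probe of highest signal, had 1 of 2. The summed luminal signal was lower in REST in 6 of 6 cows, from 3054 to 3812 in CONT and from 2519 to 3146 in REST. Without the milk protein genes CSN1S1, CSN3 and LALBA, the sum over the other 11 genes was 389 to 507 in both periods and lower in REST in 3 of 6 cows. Of 10 skeletal muscle genes with a matched probe, 2 were tested. By the best probe of each untested gene, MYH1 was well above background on 0 arrays, MB on 1, TNNT3 on 3, MYH2 and MYL1 on 4, MYH7 and ACTN2 on 8 and ACTN3 on 10. CKM, the creatine kinase of muscle, fell by 0.36 and was lower in 5 of 6 cows. The other tested gene, ACTA1, had a change of 0.02 and was not called. The summed signal of those 2 genes was 2.05 to 3.73 in CONT and 1.72 to 2.94 in REST, lower in 5 of 6 cows. Of 10 leukocyte genes CD8A and CD3E, both of T cells, were called, higher by 0.45 and 0.35, with CD8A well above background on 11 of the 12 arrays. Among those not called, CD3D of T cells had a change of 0.17, CD4, of helper T cells, one of -0.22 and the pan-leukocyte gene PTPRC one of -0.15. MS4A1 and ITGAM were not well above background on any array, and the summed leukocyte signal was 33.4 to 42.3 in CONT and 36.3 to 46.3 in REST, lower in 2 of 6 cows. Of 2 adipocyte genes FABP4, a fatty acid carrier, was called, lower by 0.35, and PNPLA2, a triglyceride lipase, had a change of 0.61 that was not called. Of the untested adipocyte markers, PLIN1 was well above background on 0 arrays, LEP on at most 4, CIDEC on 8 and LIPE on 9. The summed signal of the 2 tested adipocyte genes was 145 to 217 in CONT and 106 to 154 in REST, lower in 6 of 6 cows. This sum largely repeats FABP4, whose probe averaged 7.29 in CONT against 2.37 for PNPLA2. Without the block, none of the luminal, skeletal muscle, leukocyte or adipocyte genes was called in limma, beside the same 4.41%. Their part in the contractile marker values was not tested either.

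**Figure D4:**
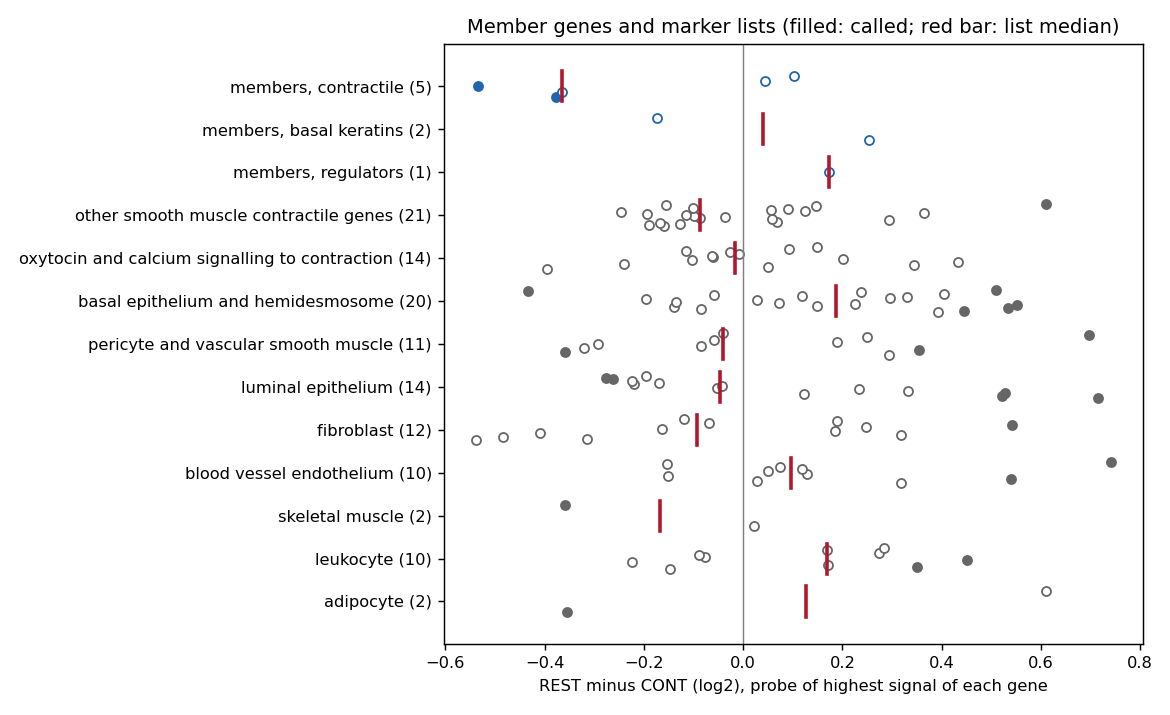
REST minus CONT change (log2, horizontal axis) of every tested gene, by its probe of highest signal, in 3 groups of the 9 markers (blue) and in 10 other lists (grey), with the number tested in brackets, filled points for called genes and a red bar at the median of each list. The contractile markers have the lowest median, at -0.37 over 5 genes, and the basal epithelium and hemidesmosome list the highest, at 0.19 over 20 genes.

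The genes whose signals over the 12 arrays were most like the contractile markers were sought among 7923 other tested genes, by Pearson's r with the mean standardised profile of the 5 contractile genes. They were FLNA, an actin cross-linker (r = 0.93), MYL9, a regulatory light chain of smooth muscle myosin (0.92), LUM, a collagen-binding proteoglycan (0.91), TPM2, a tropomyosin (0.91), and SH3BGR (0.89). None of the 5 was called between periods. For the basal keratins the first 3 were TEX30 (0.86), AZGP1, a secreted glycoprotein (0.85), and REV3L, a subunit of a DNA polymerase (0.81). The 12 arrays come from 6 cows, each with 1 CONT and 1 REST biopsy, and share slides, so these values describe the arrays and carry no p. With normexp background correction the r of SH3BGR was 0.59, of TEX30 0.47 and of REV3L -0.09, while that of FLNA, MYL9, LUM, TPM2 and AZGP1 stayed between 0.88 and 0.95.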

How the data were processed

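MG RNA was measured on 12 one-colour bovine oligonucleotide arrays, 6 per period. Per the file headers, the authors extracted spot intensities with Agilent Feature Extraction (version 11 per the labels). The deposited processed signal is a background-subtracted, detrended linear intensity without scaling between arrays, and the deposited series table held the same 45220 values per array. The 75th percentile shift that the study's methods describe was therefore computed here, on non-control spots.

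Spots marked as non-uniform or population outliers (1 to 13 per array) were left out and repeat spots were averaged. Probes well above background on every array of at least 1 period were tested. REST was compared with CONT in limma 3.58.1 (R 4.3.3; lmFit and eBayes), with the cow as a fixed block, two-sided, with Benjamini-Hochberg adjustment over 19406 probes and a threshold of 0.1. The labels name the cow of each sample; deviations from the period means correlated at r 0.36 to 0.57 within cows and -0.33 to 0.13 between them. The study's methods state t-tests and no pairing, so the fit without the block is an alternative. Symbols came from a RefSeq table through transcript identifiers (62.2% of probes). Its assembly differs from that of the array's annotation, so no coordinates are given. For lists, each gene counted by its tested probe of highest mean signal. Where other probes of a listed gene were called, their direction is not given.

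The markers and lists were chosen with earlier results of these data known. Named were all 9 markers, at most 3 called genes per list by absolute change, and the 5 and 3 genes most like the contractile markers and basal keratins. KRT17, SPARC, CSN1S1, CSN3, LALBA, PPP1CB, KRT15, KRT19, ITGA6, CAV1, MCAM, ROBO4, KDR, COL1A1, DCN, ACTA1, CD3D, CD4, PTPRC, PNPLA2 and the untested markers were named after their values were seen. Alternatives were other scalings, normexp (offset 50, on median spot and background signals, since mean signals were not used here), other filters, blocks and moderation, the methods' t-test, each cow or slide 3 left out, and other probe choices. The test code was tested on simulated data. Each period had 1 sample per cow, and the number of arrays limits the precision. Python 3.11.15, pandas 2.3.3 and matplotlib 3.10.9 were used for reading and plotting.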

Additional observations from a re-analysis of the deposited data

Results flagged for a closer look

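In 1 of the 36 sets of 6 signals (18 probes in 2 periods), a single cow lay far from the others. This was the brighter TAGLN probe (A_73_108617) in REST, where cow 3 had a signal of 3.35, the next cow 2.54 and the lowest 2.08, so that the gap made up 0.637 of the range. Chance alone would set apart about 1 in 20 such sets, or 1.8 of 36. Without cow 3 the change of this probe was -0.42 in place of -0.37, and it was not called in either case (adjusted p = 0.13 and 0.12 in limma).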

How the results depend on the processing

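The number of probes called, 3105 with the cow as a block, was 837 without the replicate block, 723 with the methods' t-test, 1899 with the slide as the block, 388 without the filter on dim probes, and 1045 (without cow 2) to 3253 (without cow 5) when 1 cow was left out, with 1534 without cow 1 and 1192 without cow 4. Of these genes, 2 were called, and 0 without the replicate block, with the slide as the block, with the methods' t-test, without the filter and without slide 3, 1 with quantile normalization (CNN1) and with the cow as a random block (CNN1), and 0 (without cow 2) to 2 (without cow 4) when 1 cow was left out. Normexp gave 3 called genes, but others than ACTA2: CNN1 lower, MYH11 higher (0.24, adjusted p = 0.088 in limma) and KRT5 higher (0.35, adjusted p = 0.099). Over 20 alternatives the brighter CNN1 probe was called in 14 (change -0.62 to -0.38), ACTA2 in 7 (-0.48 to -0.25) and the brighter TAGLN probe in 2 (-0.46 to -0.19), all keeping their sign. The dimmer CNN1 probe was called in 1 of 19, without cow 4, and the dimmer TAGLN probe in 8 of 19. Some of these calls only repeat the main fit. The deposited table held the same values, no spot of these probes was marked, and ACTA2 has a single probe to average. Apart from values within single slides, signs turned for 4 tested but uncalled changes: MYH11 probe A_73_P162812 was -0.0079 with normexp, MYLK A_73_111992 -0.013 without cow 4 (-0.013 to 0.080 with 1 cow left out), KRT14 0.070 as the mean of its probes, and OXTR -0.024 without slide 3. The untested OXTR probe A_73_P416286 went from 0.47 to -0.12 with normexp. The 6 differences of CNN1, ACTA2 and TAGLN from MYH11 and MYLK, whose direction follows from how the pairs were chosen, ran from -0.69 to -0.33 with 1 cow left out. The cause of these shifts was not tested. OXTR's second probe and TP63 were limited by signal near background.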
